A study of Mus musculus with 3 samples.

Results

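The genes described here mark macrophages and other leukocytes, the white blood cells that reach the embryonic kidney with the blood and from the mesenchyme around it. They were chosen by name, with earlier results of these data known. The list held 38 genes, with Csf1r, Cd68 and Aif1 as the defining macrophage markers. A gene was taken when a non-control probe of the array carried its listed symbol. This gave 59 probes of 36 genes, among 19753 genes with a probe in all. Lyz2 and Pf4 carry the older names Lyzs and Cxcl4 in the files, so that the rule missed them. Their 3 probes were identified by accession, and both genes are given beside the 36 but are not counted among them. Emr1 is now called Adgre1 and Sfpi1 is now called Spi1.

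RNA was compared between kidney rudiments of C57BL/6 Fgfrl1-/- embryos and of their C57BL/6 wildtype littermates at E12.5, before birth, with 6 to 9 rudiments in a pool. Fgfrl1 encodes a fibroblast growth factor receptor-like protein, and the knock-out affects the whole embryo, its blood cells included. On each of 3 arrays, 1 Fgfrl1-/- pool in Cy3 was set against 1 wildtype pool in Cy5, and the dyes were not exchanged on any array, so that the dye and the genotype cannot be told apart. Arrays 2 and 3 shared a slide, and array 1 was on a different one. The probe of Fgfrl1 itself was lower in all 3 Fgfrl1-/- pools, with log2 ratios of -1.21, -1.51 and -1.83 (mean -1.52 ± 0.31 SD, limma adjusted p = 0.0108). The share of probes well above background ranged from 57.1% to 80.2% in the Cy3 channel and from 60.9% to 65% in the Cy5 channel. Precision is limited by there being 3 arrays. Members were named by the gene symbols of the array's own annotation, and other genes by matching its accessions or symbols to RefSeq. Probe positions are those of the mm8 build.

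Tissue macrophages arise in the embryo from progenitors of the yolk sac and the fetal liver, and they depend on the transcription factor PU.1 (encoded by Sfpi1) and on the growth factor receptor Csf1r. In developing organs they remove dead cells, which they bind through surface receptors and through bridging proteins such as complement C1q, and which they degrade in lysosomes. Macrophages are known to settle in the kidney rudiment from early stages on. In RNA of whole rudiments, a difference in the number of such cells cannot be told apart from a difference in the RNA of each cell.

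Promoter sequences of the members are shown first, because PU.1 is known to bind many macrophage promoters at words with the core GGAA. The 7-base word GAGGAAG was searched on both strands (as CTTCCTC on the other) in the 250 bases before each transcription start of RefSeq (GRCm38.p6). Of the 36 genes, 24 had a promoter entry, and 5 of these 24 (20.8%) held the word, against 12% of 27025 genes. The 5 genes were Trem2, Fcgr3, Mrc1, Laptm5 and Itgam. The last 200 bases before the start are printed 5′ to 3′ for 4 of the 5 holders and, for comparison, for Cd68 and Mpeg1, which lack the word, with the word in capitals.
Trem2 (chr17:48346201-48346400, strand plus): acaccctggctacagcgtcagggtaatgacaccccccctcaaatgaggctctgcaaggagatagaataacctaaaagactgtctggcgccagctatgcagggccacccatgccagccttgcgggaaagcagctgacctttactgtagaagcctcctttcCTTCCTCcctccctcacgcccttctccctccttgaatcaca
Fcgr3 (chr1:171059404-171059603, strand minus): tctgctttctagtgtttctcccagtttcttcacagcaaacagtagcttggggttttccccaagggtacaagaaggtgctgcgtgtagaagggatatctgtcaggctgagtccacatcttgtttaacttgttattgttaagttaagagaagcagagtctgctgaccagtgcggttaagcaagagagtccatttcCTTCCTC
Mrc1 (chr2:14229214-14229413, strand plus): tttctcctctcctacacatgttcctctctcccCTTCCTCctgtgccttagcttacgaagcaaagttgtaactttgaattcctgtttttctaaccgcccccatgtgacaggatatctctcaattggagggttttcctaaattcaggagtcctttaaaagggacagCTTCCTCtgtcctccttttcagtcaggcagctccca
Laptm5 (chr4:130913116-130913315, strand plus): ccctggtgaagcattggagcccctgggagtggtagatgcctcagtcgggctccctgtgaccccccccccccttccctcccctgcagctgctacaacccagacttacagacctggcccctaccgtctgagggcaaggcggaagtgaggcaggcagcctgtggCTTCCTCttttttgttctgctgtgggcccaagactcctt
Cd68 (chr11:69666171-69666370, strand minus): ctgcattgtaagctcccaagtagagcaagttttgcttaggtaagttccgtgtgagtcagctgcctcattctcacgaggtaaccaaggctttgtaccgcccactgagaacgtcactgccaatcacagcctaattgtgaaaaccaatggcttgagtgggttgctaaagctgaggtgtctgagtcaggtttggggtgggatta
Mpeg1 (chr19:12460570-12460769, strand plus): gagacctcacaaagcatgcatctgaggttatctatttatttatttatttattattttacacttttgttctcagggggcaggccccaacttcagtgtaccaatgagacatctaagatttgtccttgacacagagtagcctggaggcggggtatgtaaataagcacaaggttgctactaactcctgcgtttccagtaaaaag
Counted from the start, with -1 as the base just before it, the word began at -41 in Trem2, -39 in Laptm5 and -7 in Fcgr3, counted from one of its annotated starts. In Mrc1 one copy began at -168 and another at -36. Of the 9 members called higher below, 7 had a promoter entry and 2 held the word, Trem2 and Fcgr3. A match of letters is a description and not a binding site.

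Of the 36 genes, 9 were called higher in the Fgfrl1-/- pools, among them the markers Csf1r and Cd68, and 27 did not pass the test, among them the marker Aif1. The median log2 ratio of Fgfrl1-/- over wildtype over the 36 genes was 0.24, against 0.01 over all 19753 genes tested. In limma's moderated test with Benjamini-Hochberg adjustment over all genes, these 9 were called at an adjusted p below 0.05, against 1.96% of all genes called higher, and 0 of the 36 were called lower, against 1.70% of all genes. Without adjustment, 19 of the 36 had a positive log2 ratio with p below 0.05, against 11.3% of all genes, and 0 had a negative one, against 9.75% of all genes. The 9 genes were Csf1r, Stab1, Trem2, Fcgr3, C1qa, C1qb, Cd68, Mpeg1 and Ptprc, and their fold changes lay between 1.32 and 1.79. With Lyz2, also called higher, the count was 10 of 38. Over all genes limma called 387 higher and 336 lower. The loess normalization mattered for these numbers, since with median centring in its place 17 of all genes (0.0861%) were called higher and 305 lower, and 0 of the 36 genes were called, of which 5 had a positive ratio at an unadjusted p below 0.05 (0.881% of all genes).

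The positive direction of the median was seen on each of the 3 arrays. Over the 36 genes it was 0.35, 0.21 and 0.24 on arrays 1, 2 and 3, whereas that of all genes was -0.0002, 0.01 and 0.01. Of the 36 genes, 24 were higher on all 3 arrays (66.7%, against 22.6% of all genes), and 2 were lower on all 3. In 17 of the 36, each Fgfrl1-/- pool had a stronger normalized signal than each wildtype pool (8.68% of all genes). The log2 ratios of the 36 genes correlated between arrays with r = 0.675 (arrays 1 and 2), 0.682 (arrays 1 and 3) and 0.805 (arrays 2 and 3), against 0.28, 0.324 and 0.769 over all genes, where genes are no independent replicates and share arrays and dyes. On the first slide alone the median was 0.35, and over the mean of the pair of arrays on the second slide it was also positive, at 0.21.

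**Figure D1:**
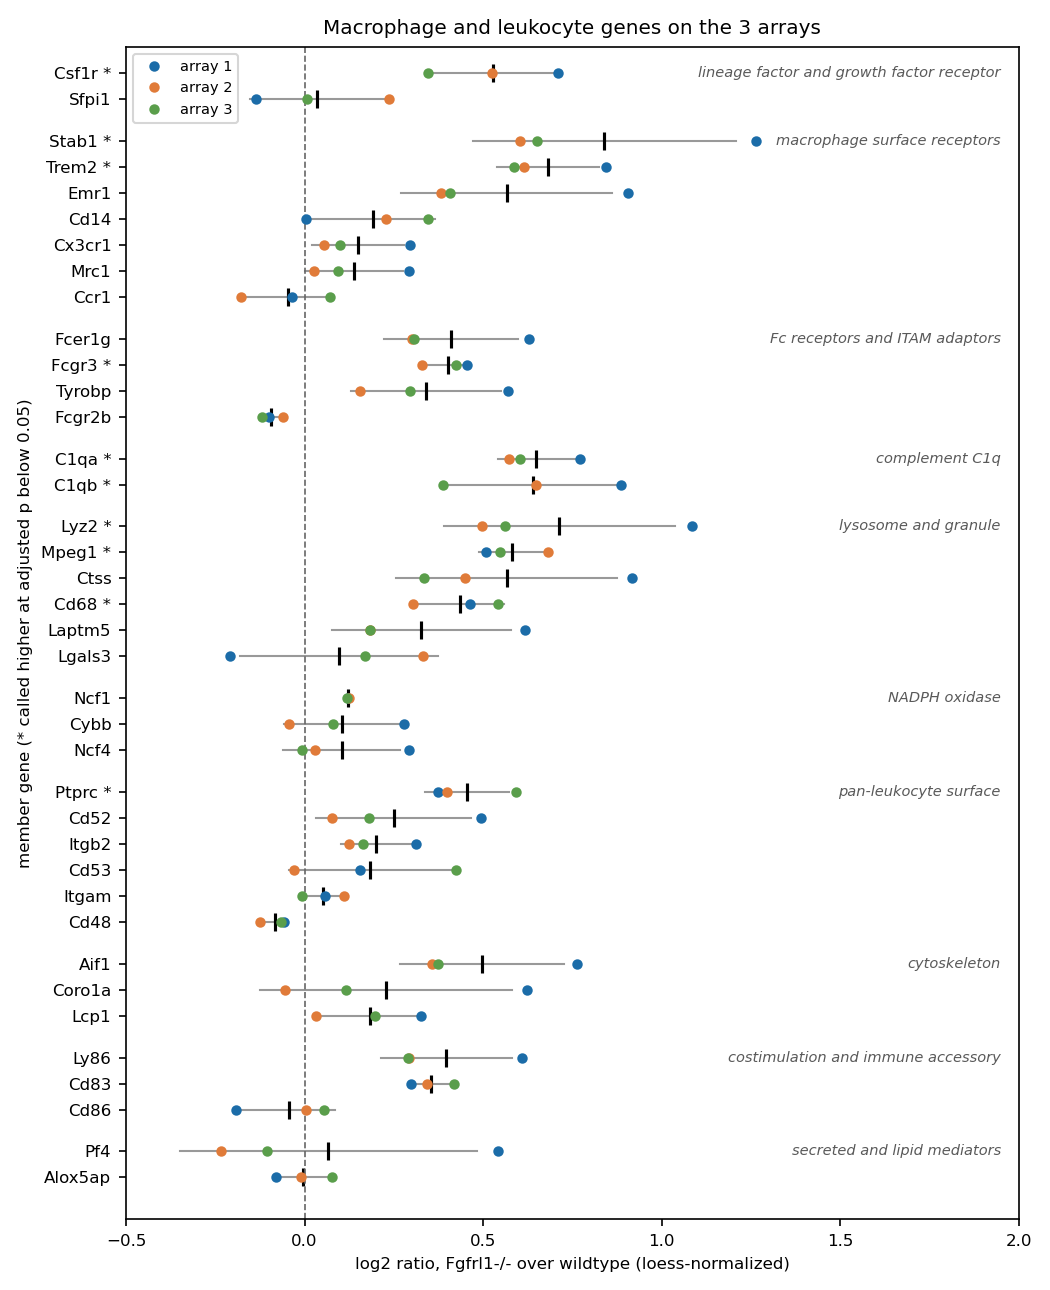
Log2 ratio of Fgfrl1-/- over wildtype (x axis, loess-normalized) for each member gene, Lyz2 and Pf4 included, on array 1 (blue), array 2 (orange) and array 3 (green), ordered by role. The black tick is the mean, the grey line ± 1 SD (n = 3 arrays), and a star marks genes called higher. Stab1 lies farthest to the right, and 24 of the 36 genes found by the rule have all 3 points above 0.

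Of the pair of genes that define the lineage, only the receptor was well measured. Csf1r, the receptor that macrophages need for survival, measured by the probe at chr18:61256099-61256158, had normalized log2 signals of 9.52, 8.12 and 8.10 in the Fgfrl1-/- pools of arrays 1, 2 and 3, and of 8.80, 7.59 and 7.75 in the wildtype pools. Its Fgfrl1-/- pool was the stronger one on each array, although the signals of array 1 were above those of both other arrays in both genotypes. The log2 ratios were 0.71, 0.52 and 0.35, which gave a mean of 0.53 ± 0.18 (here and below SD over n = 3 arrays), a limma adjusted p of 0.0448 and a 1.44-fold difference. A second probe of Csf1r, also well above background on all arrays, had a mean of 0.47 ± 0.07. Sfpi1, which encodes PU.1, was not well above background in any pool, and its log2 ratios of -0.14, 0.24 and 0.01 give no fold.

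Among the surface receptors of macrophages, Stab1 and Trem2 were called higher. Stab1, a scavenger receptor that also occurs on some endothelia, measured by the probe at chr14:29968111-29968170, had signals of 10.79, 10.22 and 10.34 in the Fgfrl1-/- pools and of 9.52, 9.61 and 9.69 in the wildtype pools. The groups did not overlap, and the log2 ratio on array 1 (1.26) was larger than those on arrays 2 and 3 (0.60 and 0.65), with a mean of 0.84 ± 0.37 (limma adjusted p = 0.0424) and a 1.79-fold difference. Its further probe was dim and had a mean of -0.02 ± 0.06.

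Trem2, a lipid receptor that promotes uptake of cell remains, measured by the probe at chr17:47817764-47817823, had signals of 9.95, 9.80 and 9.87 against 9.11, 9.18 and 9.28. Again the groups did not overlap. The ratios of 0.84, 0.61 and 0.59 gave a mean of 0.68 ± 0.14 (limma adjusted p = 0.0205), which is a 1.60-fold difference, and the further probe of Trem2 had a mean of 0.51 ± 0.18. The other receptors did not pass the test. Emr1, the F4/80 antigen of mouse macrophages, came closest with signals of 9.82, 9.41 and 9.42 against 8.92, 9.02 and 9.01, a mean log2 ratio of 0.57 ± 0.29 and a limma adjusted p of 0.064.

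Cd14, the co-receptor for lipopolysaccharide, had log2 ratios of 0.00, 0.23 and 0.34. Those of Cx3cr1, the receptor of the chemokine Cx3cl1, were 0.30, 0.05 and 0.10, and those of Mrc1, the mannose receptor, were 0.29, 0.03 and 0.09. These ratios were at or above 0 on each array, with SDs between 0.13 and 0.17 and means between 0.14 and 0.19. The chemokine receptor Ccr1 was not well above background in any pool.

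Of the Fc receptors and their signalling adaptors, Fcgr3 was called higher. It encodes an activating receptor for the Fc part of IgG and was measured at chr1:172888191-172888266. Its signals were 8.15, 7.90 and 8.03 against 7.70, 7.57 and 7.61. For this probe the ratios of 0.45, 0.33 and 0.42 were nearly the same on the 3 arrays. Their mean was 0.40 ± 0.06, a 1.32-fold difference (limma adjusted p = 0.0471). A second probe of Fcgr3, also well above background on all arrays, had smaller and less even ratios of 0.18, 0.05 and 0.36. The mean of that probe was 0.19 ± 0.15. Fcer1g, the common adaptor of activating Fc receptors, had a mean of 0.41 ± 0.19 (limma adjusted p = 0.073) and a second bright probe at 0.28 ± 0.03. Tyrobp, the adaptor of Trem2, had ratios of 0.57, 0.15 and 0.30, with a mean of 0.34 ± 0.21 (limma adjusted p = 0.123).

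Fcgr2b, the inhibitory Fc receptor that is similar in sequence to Fcgr3, had log2 ratios of -0.10, -0.06 and -0.12 from a probe that was well above background on 2 arrays in the Fgfrl1-/- pools and on 1 array in the wildtype pools. Its mean turned positive with the scanner's own ratios (0.21) and with median centring (0.02), so that no direction can be given for it.

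Both members for complement C1q were called higher. C1qa and C1qb encode chains of the protein that opens the classical complement pathway and tags dead cells, and their probes lie close together, at chr4:136168570-136168629 and chr4:136152739-136152798 (mm8). C1qa had signals of 8.84, 8.48 and 8.57 in the Fgfrl1-/- pools and of 8.07, 7.91 and 7.96 in the wildtype pools. Its mean log2 ratio was 0.65 ± 0.11 (limma adjusted p = 0.0201), a 1.57-fold difference. C1qb had signals of 8.93, 8.37 and 8.33 against 8.04, 7.72 and 7.94 and a mean of 0.64 ± 0.25 (limma adjusted p = 0.0425). The groups did not overlap for either gene. The third chain gene, C1qc, is not a member but was called higher too, with ratios of 0.90, 0.72 and 0.48 and a mean of 0.70 ± 0.21 (limma adjusted p = 0.0301).

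Among the members for lysosomes and granules, Cd68 and Mpeg1 were called higher, and Lyz2 with them. Cd68, a lysosomal membrane protein and a marker of macrophages, measured by the probe at chr11:69481007-69481066, had signals of 7.53, 7.18 and 7.44 against 7.06, 6.88 and 6.90, without overlap, and a mean ratio of 0.44 ± 0.12 (limma adjusted p = 0.0488). Mpeg1, measured at chr19:12531942-12532001, encodes a perforin-like protein of macrophages. Its signals of 9.61, 9.18 and 9.22 lay above those of 9.11, 8.49 and 8.67 in the wildtype pools, and its mean was 0.58 ± 0.09 (limma adjusted p = 0.0241), a 1.49-fold difference.

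Lyz2, the lysozyme of macrophages and granulocytes, had ratios of 1.08, 0.50 and 0.56, with a mean of 0.71 ± 0.32 (limma adjusted p = 0.0474). The Fgfrl1-/- pool was the stronger one on each array, at 12.42 against 11.33, at 11.28 against 10.78 and at 11.38 against 10.82. Ctss, a cathepsin of antigen-presenting cells, had a mean of 0.57 ± 0.31 and missed the threshold (limma adjusted p = 0.0678), although its groups did not overlap. Laptm5, a lysosomal membrane protein of blood cells, had ratios of 0.62, 0.18 and 0.18. Lgals3, a galectin that also occurs in epithelia, had ratios of -0.21, 0.33 and 0.17 and thus no common direction.

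**Figure D2:**
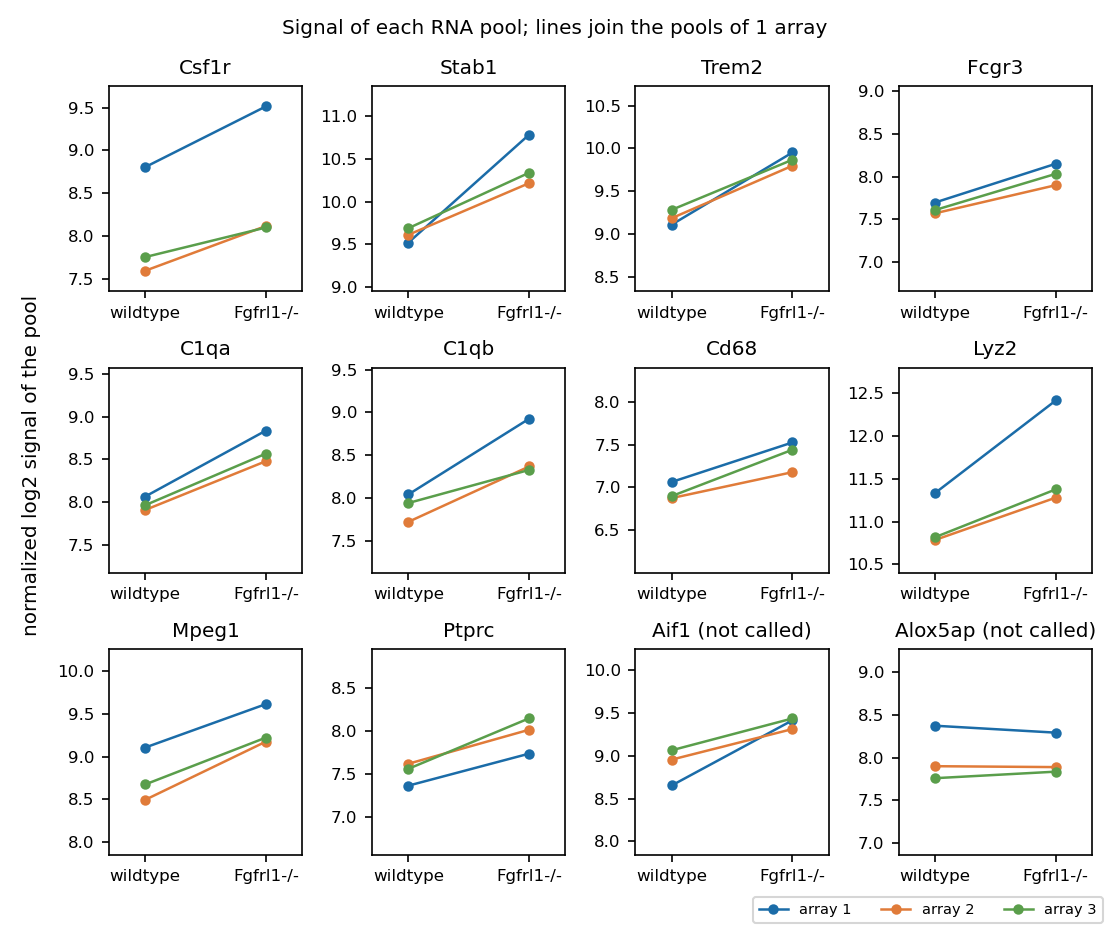
Normalized log2 signal (y axis, with the same span in each panel) of the wildtype pool and the Fgfrl1-/- pool of each array, joined by a line, for the 10 genes called higher and for Aif1 and Alox5ap, which were not called. All lines of the first 11 panels go up towards Fgfrl1-/-, whereas those of Alox5ap are level.

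The subunits of the NADPH oxidase, with which phagocytes make superoxide, had small ratios in the reported processing. Cybb, the membrane subunit, had log2 ratios of 0.28, -0.04 and 0.08. Ncf1, a cytosolic subunit, had 0.12 on each array, and Ncf4, another one, had 0.29, 0.03 and -0.01. The means of the 3 genes lay between 0.10 and 0.12, and 0 of them passed the test. Cybb and Ncf1 had weak mean log2 signals of 6.56 and 6.50, against 7.97 for Ncf4. The size of the ratios depended on the processing. The median of the 3 genes was 0.11, but 0.21 with a normexp offset of 0 and 0.39 with the scanner's ratios. The median of the 36 members rose in these settings too, from 0.24 to 0.37 and 0.43.

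Of the genes for surface proteins of all leukocytes, Ptprc was called higher. It encodes CD45, the phosphatase found on nearly all nucleated blood cells, was measured at chr1:139879923-139879982 and had signals of 7.74, 8.02 and 8.15 against 7.36, 7.62 and 7.56. The groups did not overlap, and the mean ratio was 0.45 ± 0.12 (limma adjusted p = 0.0448). Unlike most members it had its largest ratio on array 3 (0.59). The 3 further probes of Ptprc were well above background on 1 array at most, with means of 0.09, 0.14 and 0.15.

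Itgb2, the beta chain of the leukocyte integrins, had a mean of 0.20 ± 0.10, and its partner Itgam, which was well above background in 1 Fgfrl1-/- pool and in 0 wildtype pools, had ratios of 0.06, 0.11 and -0.01 that give no direction. Cd52, a small glycoprotein of leukocytes, had a mean of 0.25 ± 0.22. The tetraspanin Cd53 had ratios of 0.16, -0.03 and 0.42, and Cd48, an adhesion protein of lymphocytes and monocytes, had -0.06, -0.13 and -0.07. None of these 5 genes passed the test, and the mean of Cd48 turned positive with the scanner's ratios (0.13).

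Aif1, which encodes the actin-binding protein Iba1 and was the third defining marker, narrowly missed the threshold. Its signals were 9.42, 9.31 and 9.44 in the Fgfrl1-/- pools and 8.65, 8.96 and 9.07 in the wildtype pools, without overlap. The mean ratio was 0.50 ± 0.23 (limma adjusted p = 0.0608), and a second bright probe had 0.60 ± 0.17. The other genes for the leukocyte cytoskeleton were smaller in value: Coro1a, an actin regulator, had ratios of 0.62, -0.06 and 0.12, and Lcp1, the actin bundler L-plastin, had 0.32, 0.03 and 0.20.

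Ly86, the partner of a Toll-like receptor relative, and Cd83, a surface protein of activated antigen-presenting cells, also lay near the threshold. Ly86 had a mean of 0.40 ± 0.18 (limma adjusted p = 0.0761) with non-overlapping pools, and Cd83 had ratios of 0.30, 0.34 and 0.42 with a mean of 0.35 ± 0.06 (limma adjusted p = 0.059). Cd86, the ligand of CD28, was not well above background in any wildtype pool and gave no fold. Alox5ap, which is needed for leukotriene synthesis, had ratios of -0.08, -0.01 and 0.08. Pf4, a chemokine of platelets that some macrophages express, had 0.54 on array 1 but -0.23 and -0.11 on arrays 2 and 3.

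Most members were measured well above background. Of the 36 genes, 30 were well above background in both channels on all 3 arrays, and the ratio of 29 of these 30 was positive, Alox5ap being the exception, against 53.1% of the 13168 genes with such a signal. The 6 others were not well above background in every pool. Of these, Sfpi1 and Ccr1 passed this mark in 0 pools, Itgam and Cd86 in 1 Fgfrl1-/- pool, Fcgr2b in 2 Fgfrl1-/- pools and 1 wildtype pool, and Cd48 in 3 Fgfrl1-/- pools and 2 wildtype pools. Beside the chosen probes, the 36 genes had 23 further probes, of which 8 were well above background throughout, and all 8 had a positive mean, as had the chosen probe of the same gene. That of Lcp1 was positive through array 1 alone, with ratios of 0.785, -0.22 and -0.18. Of the 15 dimmer ones, 10 were positive. Stab1 and Mpeg1 each had a dim further probe with a mean within 0.02 of 0, so that their calls rest on 1 probe. The calls of C1qa, C1qb and Cd68, which had no further probe, and of Ptprc, whose further probes were dim, also rest on 1 probe each.

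A list of 40 other macrophage genes had a smaller median of 0.08. In it, 3 genes were called higher and 0 lower. Ms4a7, a tetraspan protein of macrophages, had ratios of 0.75, 0.85 and 0.85 and a mean of 0.82 ± 0.06 (limma adjusted p = 0.0121). C1qc, described above, was also among them, and 32 of the 40 genes had a positive mean.

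In a list of 16 genes for the uptake of dead cells the median was 0.29, with 3 called higher and 0 lower. The 3 were Mertk (0.66 ± 0.23), Tyro3 (0.54 ± 0.14) and Axl (0.54 ± 0.07), which together form the TAM family of receptors for phosphatidylserine-bound ligands and which occur in many cell types besides macrophages. Their limma adjusted p-values were 0.0351, 0.0342 and 0.0269. With median centring the median of the list was 0.07, and 8 of its 16 genes were positive.

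Of 48 genes of the lysosome in general, 4 were called higher and 0 lower, and the median was 0.19. Ctsd (0.72 ± 0.33), Smpd1 (0.51 ± 0.10), Man2b1 (0.47 ± 0.06) and Ctsl (0.41 ± 0.05) encode a protease, a lipid hydrolase, a glycosidase and another protease, all found in most cells. This direction depended on the normalization, since with median centring the median of the lysosomal list fell to -0.06 and Ctsl turned to -0.06. The median of the 36 macrophage and leukocyte genes was 0.22 with median centring, and 34 of the 36 were then positive, against 9422 of all 19753 genes. Median centring also moved the medians of the mostly dim lymphoid and granulocyte lists up, from -0.02 to 0.07 and 0.11. It moved the median of the bright stromal list down, from 0.62 to 0.19. The part of signal level in these shifts was not tested. Genes for macrophage growth factors and chemoattractants had a median of 0.04, and 8 of 13 means were positive. Limma called 0 of the 13, against 1.96% of all genes higher and 1.70% lower. At an unadjusted p below 0.05, 3 had a positive ratio (11.3% of all genes). These were Ccl3 (0.41 ± 0.12), Ccl4 (0.40 ± 0.19) and Il34 (0.20 ± 0.04), named after their values were seen. The brightest genes, Csf1, the ligand of Csf1r, and Cx3cl1, had 0.14 ± 0.10 and -0.18 ± 0.09. The median was 0.12 with a normexp offset of 0 and 0.50 with the scanner's ratios. Of the 13 genes, 5 were not well above background in every pool.

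**Figure D3:**
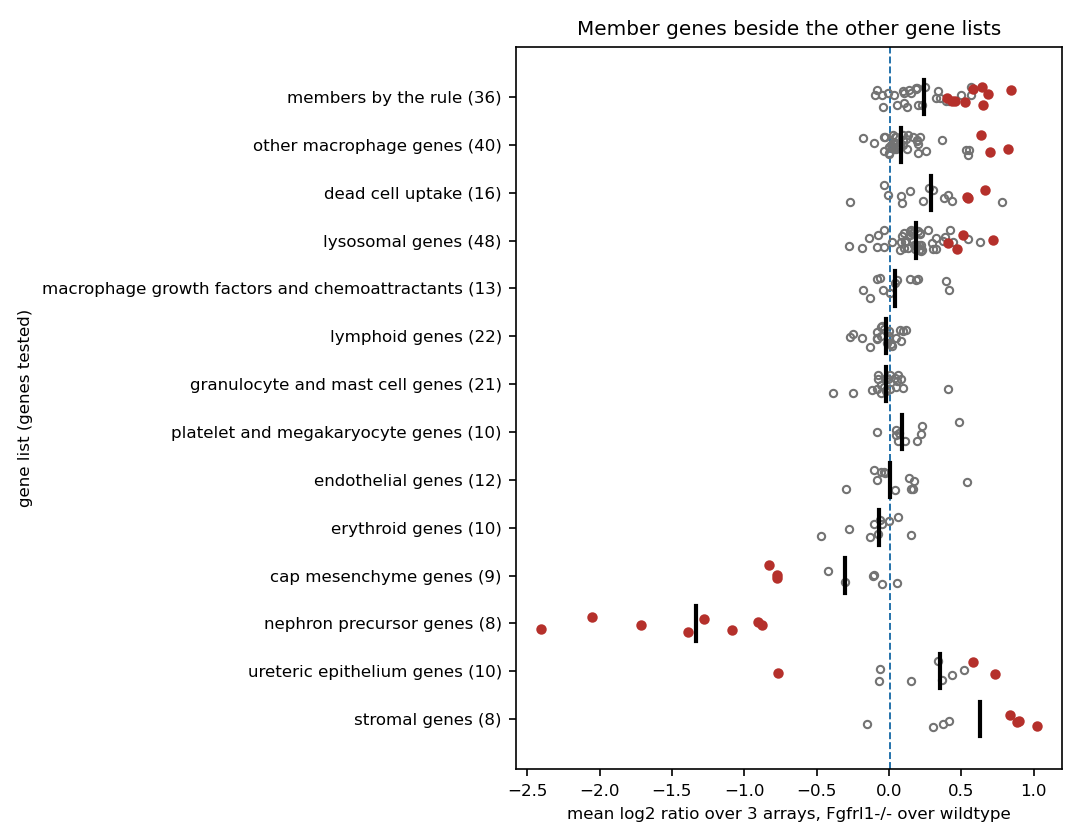
Mean log2 ratio over the 3 arrays (x axis) of each gene in the 36 members and in 13 other lists, with the number of genes tested in brackets. Filled red points passed the test, black bars are list medians and the dashed line is the median of all genes. The members have 9 red points, all to the right of 0, and the nephron precursor genes 8, all to the left.

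Genes of other blood cells were not called in either direction. At the shares of all genes called, 1.96% higher and 1.70% lower, few calls would fall in lists this small. The absence of calls therefore does not set these lists apart from all genes. In limma's test, 0 of 22 lymphoid genes were called, with 0 higher and 1 lower at an unadjusted p below 0.05, and 18 of the 22 were not well above background in at least 1 pool. Their median was -0.02, or 0.07 with median centring. The brightest lymphoid genes, Lck and Cd79b, had -0.27 ± 0.12 and -0.25 ± 0.22. Ptprc, which lymphocytes share with macrophages, was called higher as given above.

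The brightest granulocyte gene had opposite ratios on the slides. S100a9, a calcium-binding protein of neutrophils, had log2 ratios of 1.69 on array 1 but -1.56 and -1.29 on arrays 2 and 3. Of the 21 granulocyte and mast cell genes tested, 9 were higher on array 1 and lower on arrays 2 and 3, among them S100a8 (1.24, -0.83 and -0.64) and Camp (1.02, -0.69 and -0.56), both named after their values were seen. Of the 36 members, 0 had this pattern in their chosen probes, against 2796 of all 19753 genes and 6 of the 40 other macrophage genes. A bright further probe of Lcp1 did have it (0.785, -0.22 and -0.18), and of the members identified by accession Pf4 had it. Mpo, the myeloperoxidase of granulocyte precursors, had 0.10, -0.31 and 1.42. In this list 0 genes were called by limma, with 0 higher and 1 lower at an unadjusted p below 0.05, and its median was -0.02, or 0.11 with median centring. Of its 21 genes, 14 were not well above background in at least 1 pool.

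Among 10 platelet and megakaryocyte genes, 0 were called, and 2 had a positive ratio at an unadjusted p below 0.05. These 2, named after their values were seen, were Ppbp (1.05, 0.26 and 0.14) and Gp9 (0.26, 0.14 and 0.18). Of the 10 means, 9 were positive, and the median of the list was 0.09, against 0.08 for the 40 other macrophage genes. On arrays 1, 2 and 3 the median of the platelet list was 0.33, 0.12 and -0.04. Itgb3, the beta chain of the fibrinogen receptor, had 1.73 on array 1 and -0.82 and -0.73 on arrays 2 and 3, and Treml1 had 0.71, 0.02 and -0.03. Of 10 erythroid genes 0 were called, with 2 lower at an unadjusted p below 0.05, the median was -0.07, and the globin genes Hbb-y and Hba-a1 had -0.05 and -0.13. Of 12 endothelial genes 0 were called, with 1 higher and 1 lower at an unadjusted p below 0.05. The median of the endothelial list was 0.01, and -0.21 with median centring, and its brightest genes Emcn and Robo4 had -0.10 and 0.54. The part of the granulocyte and platelet ratios of array 1, with list medians of 0.11 and 0.33, in the larger ratios of members such as Stab1, Lyz2 and Ctss on array 1 was not tested.

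**Figure D4:**
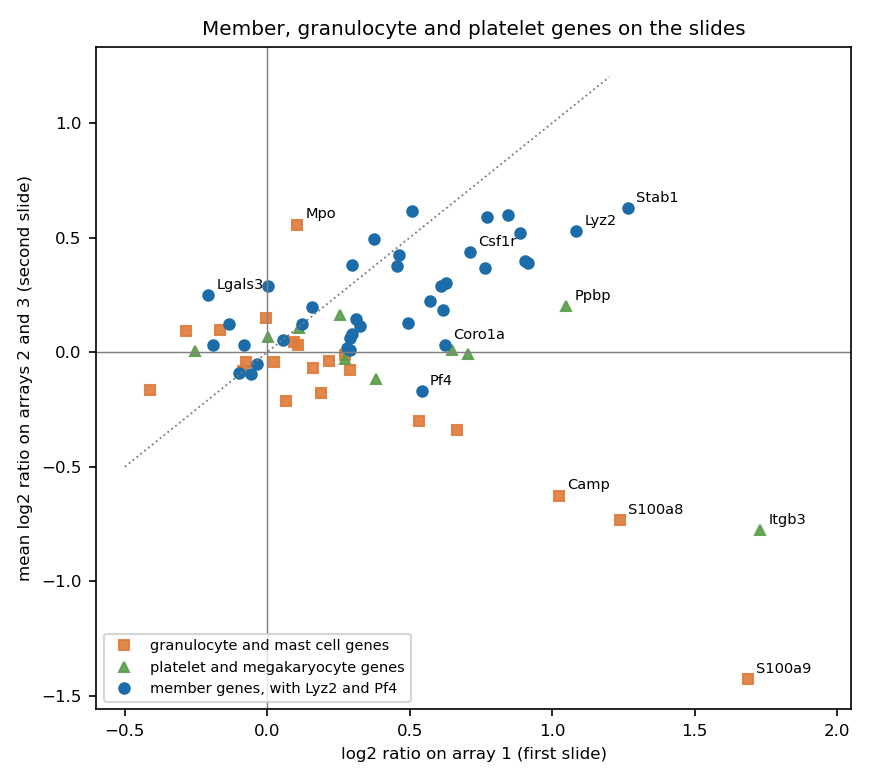
Log2 ratio on array 1 (x axis) against the mean of arrays 2 and 3 (y axis) for the member genes with Lyz2 and Pf4 (blue), granulocyte and mast cell genes (orange) and platelet genes (green). The dotted line marks equal ratios on both slides. S100a9, S100a8, Camp and Itgb3 lie at the lower right, with opposite signs on the slides, and Stab1, Lyz2 and Csf1r at the upper right.

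Genes of the kidney's own cell types were called in both directions. All 8 nephron precursor genes were called lower, led by Wnt4 (-2.40 ± 0.34), Fgf8 (-2.05 ± 0.34), Lhx1 (-1.72 ± 0.08) and Hes5 (-1.39 ± 0.19). Of 9 cap mesenchyme genes, Gdnf (-0.83 ± 0.18), Cited1 (-0.78 ± 0.19) and Itga8 (-0.78 ± 0.06) were called lower. Of 8 stromal genes, Pdgfra (1.02 ± 0.09), Foxd1 (0.90 ± 0.29), Dcn (0.89 ± 0.27) and Col1a1 (0.84 ± 0.18) were called higher. The authors reported that quantitative PCR did not bear out the rise of Col1a1, nor that of the other raised transcripts they tested. Of 10 ureteric genes, Wnt9b (0.73 ± 0.25) and Krt18 (0.58 ± 0.10) were called higher and Wnt11 (-0.76 ± 0.13) lower. With median centring the 8 nephron precursor genes were still called lower, but of the genes of all 13 other lists 0 were called higher. The mean log2 signal of the 8 stromal genes was between 12.28 and 12.61 in the Fgfrl1-/- pools and between 11.87 and 11.95 in the wildtype pools. That of the 8 nephron precursor genes was between 7.51 and 7.90 against 9.13 and 9.17, and that of the 36 members between 7.94 and 8.15 against 7.72 and 7.76. The part of such shifts in cell make-up in the ratios of the members was not tested.

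The median of the members was positive in every processing setting that was run, whereas their calls changed with it. The median of the 36 genes lay between 0.20 and 0.43 in the 16 other settings, and the 9 called genes were positive in each of them. The number of members called higher fell to 0 without array 2 and without array 3, where limma called 11 and 0 of all genes higher, and rose to 18 without array 1, where it called 2437. It was also 0 with median centring, with which 17 of all genes were called higher. With trended and robust variances and with 1 mean value per slide it was 0 too, where 3 and 6 of all genes were called higher. With a normexp offset of 0 and with the scanner's ratios, 0 members and 0 of all genes were called higher.

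**Figure D5:**
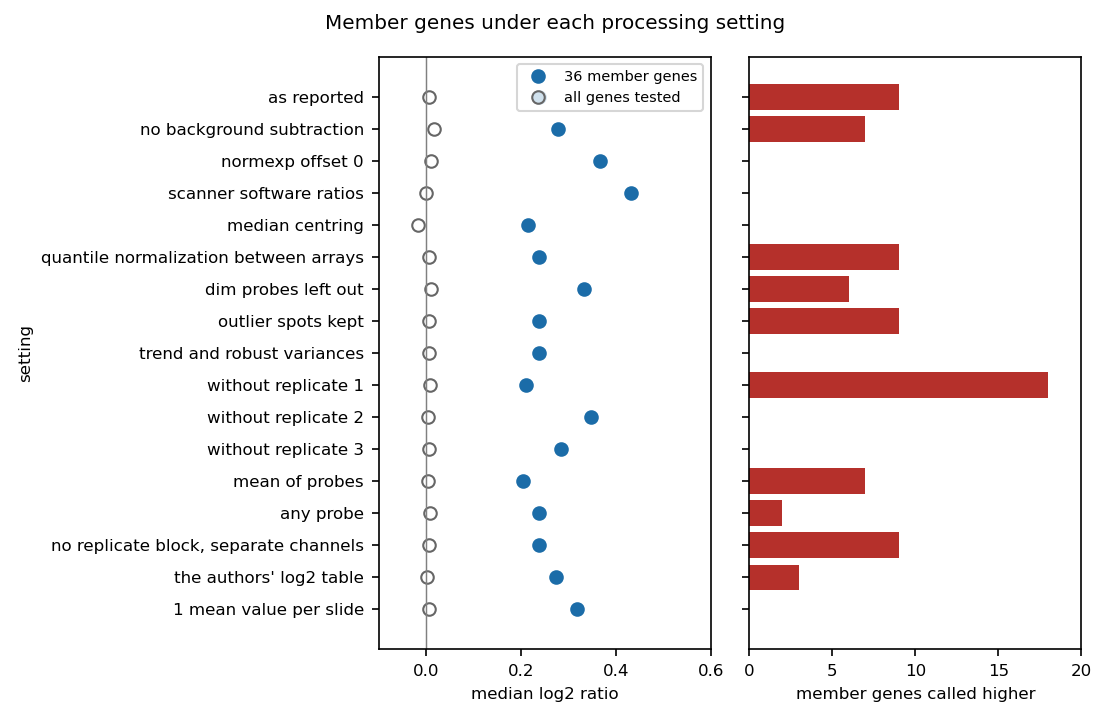
Left, median log2 ratio of the 36 member genes (filled) and of all genes tested (open) under each processing setting (y axis); right, number of members called higher at an adjusted p below 0.05. The medians of the members lie between 0.20 and 0.43, and the number of calls runs from 0 to 18.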

How the data were processed

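The authors deposited 1 Agilent two-colour scanner file per array, with the median spot intensity and local background of both channels and the scanner's log10 ratio of Cy5 over Cy3, and a table of log2 ratios. Per the file headers, Feature Extraction 9.5.3.1 (array 1) and 10.5.1.1 (arrays 2 and 3) were used, and the submitters' processing notes name Agilent Feature Extraction 10. The log2 table deposited by the authors ran as Fgfrl1-/- over wildtype, since it correlated with the scanner's ratios at r = -0.705, -0.718 and -0.706; its column medians were -0.018, 0 and 0.003, and its normalization is not given in the sources used here.

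Intensities were background corrected with normexp (offset 50) and normalized within each array by loess in limma 3.58.1 (R 4.3.3), control spots being left out of the fit and spots with outlier flags after it. Replicate spots were averaged, and of several probes for a gene the brightest on average was used. Log2 ratios of Fgfrl1-/- over wildtype were tested with lmFit and eBayes, 2-sided, with Benjamini-Hochberg adjustment over 19753 genes and a threshold of 0.05. The procedure was tested on simulated data. P-values weigh the mean log2 ratio of a gene against the moderated spread of its ratios between arrays. This spread holds differences between pairs of pools, labelling and hybridization together. Variation shared by both pools of an array cancels in the ratio. A dye effect repeated on every array would not widen this spread and cannot be told apart from the genotype. A signal was well above background by the scanner's deposited flag.

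The members and gene lists were chosen with earlier results of these data known. All 38 members are named. Of each other list up to 4 called genes with the largest absolute log2 ratio are named, or the 2 brightest where none was called. Genes said to be named after their values were seen come in addition. The values of 1 called gene are not reported here. The alternatives concerned background correction, normalization, dim and outlier spots, probes per gene, the variance model, left-out arrays, separate channels, the authors' table and 1 mean per slide.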

Additional observations from a re-analysis of the deposited data

How the results depend on the processing

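Every setting gave the members a positive median and called 0 of them lower, over 36 genes or, with dim probes left out, over the 32 brighter ones, and the count of 9 called higher changed as follows. It was 0 with a normexp offset of 0, with the scanner's ratios, with median centring, with trended and robust variances and with 1 mean value per slide, 2 when each probe was tested on its own, and 3 in the authors' log2 table. Leaving out 1 array in turn gave 0 to 18, with 18 without array 1 and 0 without array 2 or array 3. The median of 0.24 moved to 0.37 with a normexp offset of 0, 0.43 with the scanner's ratios, 0.33 over the 32 members kept without dim probes and 0.32 with 1 mean value per slide, and lay between 0.21 and 0.35 with an array left out. Over all genes, the 387 calls higher and 336 lower became 0 and 0 with a normexp offset of 0 and with the scanner's ratios, 17 and 305 with median centring, 3 and 88 with trended and robust variances, 110 and 143 with each probe tested on its own, 113 and 157 in the authors' table, 6 and 32 with 1 mean per slide, 2437 and 2257 without array 1, 11 and 38 without array 2, and 0 and 8 without array 3.

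Of the other lists, 28 genes were called in all. In settings chosen for these lists after seeing the data, this count was 0 with a normexp offset of 0 and with the scanner's ratios, 14 with median centring, 8 with trended and robust variances, 17 with each probe tested on its own, 17 in the authors' table, 5 with 1 mean per slide and 2 to 89 with an array left out. Adding Lyz2 and Pf4, also chosen after seeing the data, gave 10 called and the same median. The cause of these changes was not tested.

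Single ratios that changed sign were small or from dim genes, apart from Pf4. With the scanner's ratios Alox5ap had 0.0394, Cd48 0.13, Fcgr2b 0.21 and Itgam -0.0066. With median centring Ccr1 had 0.0769, Cd86 0.064, Fcgr2b 0.0191 and Pf4 -0.21. Without background subtraction Alox5ap had 0.0208, and with 1 mean per slide Sfpi1 had -0.0071. With an array left out, the ratio ran from -0.0458 to 0.033 for Alox5ap, from -0.1066 to 0.0187 for Ccr1, from -0.094 to 0.0297 for Cd86, from -0.0201 to 0.2498 for Lgals3, from -0.1703 to 0.2175 for Pf4 and from -0.0642 to 0.1218 for Sfpi1.

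The ratio of each array already pairs its pools. The fit of separate channels, with no replicate block, called 9 members higher, 6 of them among the 9 of the paired ratios, and kept the median of 0.24. Of all 19743 genes in that fit, 445 were called higher and 386 lower. The slide as a random block could not be fitted with 3 arrays, because no correlation could be estimated. Signal over background limits the 6 members that were not well above background in every pool.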
